A study of Homo sapiens with 9 samples.

Results

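The 4 HOX clusters, HOXA, HOXB, HOXC and HOXD, were examined in 9 ChIP-nexus peak lists of the human uterine adenocarcinoma line HEC-1-B. ChIP-nexus trims immunoprecipitated DNA with exonucleases up to the edge of the bound protein, which places a binding site to within a few base pairs. The regions were chosen by position alone, on build hg19: HOXA at chr7:27130000-27260000, HOXB at chr17:46600000-46820000, HOXC at chr12:54320000-54460000 and HOXD at chr2:176930000-177060000. All peaks there, 302 in number, were merged into sites wherever they overlapped by 1 bp. This gave 63 sites, of 91146 sites formed in the same way over chromosomes 1 to 22 and X. HOXA and HOXB held 18 sites each, HOXC 12 and HOXD 15.

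Each list came from 1 library, so no difference between conditions below has a replicate check. From wild-type cells, 1 library was made per protein: ZNF143, CTCF and RAD21, a cohesin subunit. Cells labelled ZNF143KO, in which ZNF143 is knocked out, had libraries for CTCF and RAD21. Cells labelled CTCF-AID, in which CTCF carries an auxin-inducible degron, had libraries for CTCF and ZNF143 before auxin (IAA, 0 h) and after 24 h. The treatment protocol gives 500 µM IAA for cells that express TIR1, the receptor that auxin needs. Neither the loss of ZNF143 in the knockout nor the loss of CTCF after auxin was measured here, and both are taken from the labels. Whether each derived line is 1 clone is not given in the sources used here.

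HOX genes encode homeodomain transcription factors that set position along the body axis, and their order along each cluster follows the order of the body regions where they act. CTCF is a zinc-finger protein that binds a long DNA motif and stops cohesin, the ring complex that holds RAD21 and extrudes DNA loops. Within HOX clusters, CTCF sites are known as borders between active chromatin and chromatin silenced by Polycomb complexes. ZNF143 is a zinc-finger activator that binds many promoters and is often mapped beside CTCF. In the RefSeq gene table, which is on build GRCh38.p14, 39 HOX genes lie in these clusters. In the order of rising coordinates, HOXB runs from HOXB1 to HOXB13, HOXC from the HOXC13 end to the HOXC4 end, and HOXD from EVX2 and HOXD13 to HOXD1. Sites were not placed against single genes, because the gene table is on another build than the peaks.

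Sequence under the peaks was not used here. The RefSeq promoter table (GRCh38.p14, 250 bases before to 50 after a start) was searched instead for the letters of a CTCF motif core. The letters CC, any 3 bases, AG, any 2 bases and GGC were searched on both strands. A match was found in 4 of 29 promoters of the 22 HOX and EVX genes in the table, and in 10.6% of all 35116 promoters. The 4 stretches are shown 5′ to 3′ on the gene's strand with the match in capitals, and all lie before the start.
HOXA10: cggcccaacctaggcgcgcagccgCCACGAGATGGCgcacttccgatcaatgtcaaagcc
HOXA11: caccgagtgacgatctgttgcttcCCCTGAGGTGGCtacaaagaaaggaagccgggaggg
HOXD10: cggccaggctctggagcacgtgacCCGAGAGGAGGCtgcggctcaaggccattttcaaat
HOXD1: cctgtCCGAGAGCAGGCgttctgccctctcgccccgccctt
HOXA10 and HOXA11 are on the minus strand of chromosome 7, and HOXD10 and HOXD1 on the plus strand of chromosome 2. The letters CCCA, any 2 bases and ATGC, a core of the ZNF143 motif, were searched likewise and were in 0 of the 29 promoters and in 1.73% of all promoters. A match is a description of letters in these windows, and none of the promoters was matched to a peak.

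The clusters were dense in peaks of all 3 proteins. Over their 620 kb they held 6.45 wild-type CTCF peaks per 100 kb, against 2.66 in windows of the same lengths on either side and 1.75 over chromosomes 1 to 22 and X. For wild-type RAD21 the densities were 6.45, 2.34 and 1.61 per 100 kb. For wild-type ZNF143 they were 5.00, 1.77 and 1.21 per 100 kb. The surroundings differed between clusters. The flanks of HOXA held 0 and 2 wild-type CTCF peaks against 8 within the cluster, and those of HOXD 1 and 0 against 10. HOXC had 7 within and 1 and 5 in the flanks, whereas HOXB had 15 within and 13 and 11 in the flanks.

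The 63 sites fell mostly into sites found in nearly every list and sites found in few. Peaks were present in all 9 lists at 8 sites and in 8 lists at 15 sites, whereas 11 sites came from 1 list and 14 from 2. Of all sites, 28 had wild-type peaks of ZNF143, CTCF and RAD21 together and are called triple sites: 7 in HOXA, 9 in HOXB, 3 in HOXC and 9 in HOXD. CTCF and RAD21 without ZNF143 were at 7 sites, CTCF alone at 5, RAD21 alone at 5, ZNF143 alone at 3, and 15 sites had no wild-type peak. The shares of these classes over all 91146 sites are not given here, so the counts do not set the clusters apart. The 9 lists differ in length and threshold. They held between 13865 and 63420 peaks, and the −log10 q of their weakest peak was 5 for the knockout and about 3 for the other 7.

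**Figure D1:**
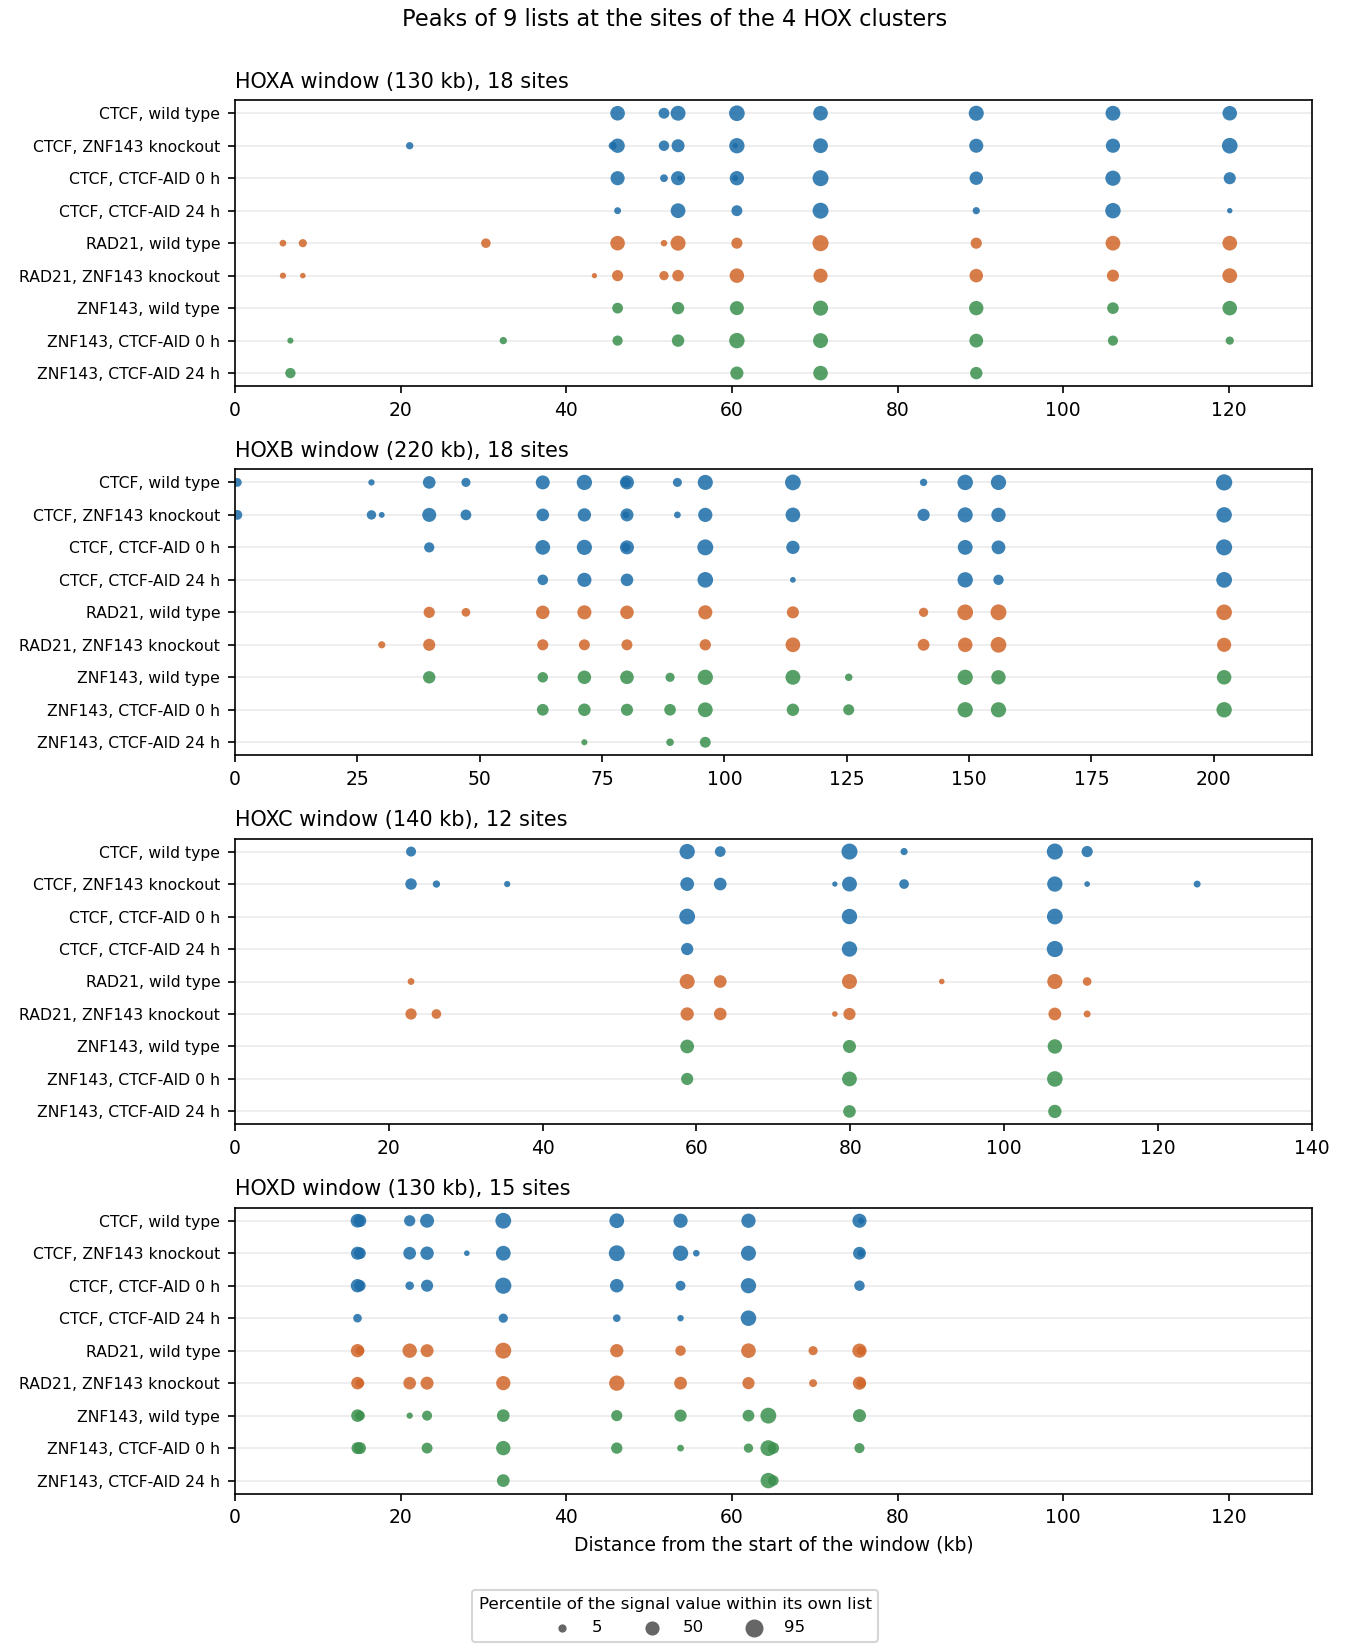
Peaks of the 9 lists along the 4 cluster windows. The x axis is the distance from the window's start in kb, each row is 1 library, and the size of a point is the percentile of the authors' signal value within its own list; the sites that line up in 8 or 9 rows contrast with small points in 1 or 2 rows.

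In the HOXA window the triple sites began 46.2 kb from the start and spanned 73.9 kb. The first site of that span, at chr7:27176070-27176299, had wild-type signal values (the authors' fold enrichment over background) of 8.67 for ZNF143, 21.8 for CTCF and 21.5 for RAD21. The next triple sites were at chr7:27183364-27183643, chr7:27190469-27190713, chr7:27200614-27200883, chr7:27219423-27219660, chr7:27235845-27236240 and chr7:27250035-27250221. Over the 7 sites, wild-type CTCF signals lay between 21.6 and 25.3, a narrow range near percentile 81.7 of the list at the median. RAD21 varied more, from 11.1 at the site starting at 27190469 to 26.2 at the site starting at 27200614. ZNF143 was highest at that same site, with 16.3. The lower-coordinate part of the window held weak sites only. RAD21 peaks without CTCF lay at chr7:27135755-27135848 (signal 5.72 in wild type and 6.46 in the knockout) and chr7:27138118-27138200 (6.78 and 5.86).

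In the HOXB window the 9 triple sites spanned 162 kb, and the widest gap between neighbours was 46.1 kb. That gap lay before the last site, at chr17:46801955-46802192, which had the highest wild-type CTCF signal of the 4 clusters, 29.4 (percentile 99.5 of its list). RAD21 there was 24.2 and ZNF143 14.6. Over the 9 HOXB triple sites, CTCF signals ran from 16.2 to 29.4 with a median of 23.8, and ZNF143 signals ran from 8.53 to 17.2 with a median of 14.1. The lowest CTCF value, 16.2, was at chr17:46639637-46639813, the first triple site, and the highest ZNF143 value was at chr17:46695960-46696269. HOXB also held 4 of the 5 sites with wild-type CTCF alone. Their CTCF signals were 8.13 at chr17:46600485-46600571, 6.17 at chr17:46627815-46627924, 9.78 at chr17:46679818-46679942 and 8.54 at chr17:46690371-46690435. All 4 had a CTCF peak in the knockout as well, and none had a RAD21 peak in either genotype.

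HOXC had the fewest triple sites, and they were strong. At chr12:54378673-54378929 CTCF had a wild-type signal of 24.1, RAD21 one of 22.6 and ZNF143 one of 12.8. At chr12:54399749-54400039 they were 27.2, 22.6 and 11.6 in the same order. At chr12:54426399-54426706 they were 27.5, 22.9 and 14.4. The CTCF values stood at a median percentile of 96.8 of their list, against 72.5 for the triple sites of HOXD. The 3 sites lay 21.1 and 26.6 kb apart. HOXC also held 3 of the 7 sites with CTCF and RAD21 but no ZNF143. The one with the highest RAD21 signal, chr12:54383037-54383158, had 11.3 for CTCF and 15.7 for RAD21 in wild type and 17.6 and 15.1 in the knockout, with no peak in the CTCF-AID lists.

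In the HOXD window the sites covered only the first part. The triple sites spanned 60.6 kb, from 14.7 kb after the window's start, and the last 54.4 kb of the window held no peak start in any list. The closest pair of triple sites, chr2:176944625-176944981 and chr2:176945050-176945225, had CTCF summits 0.392 kb apart in wild type. Their wild-type CTCF signals were 19.0 and 16. The highest CTCF signal in HOXD was 25.7, at chr2:176962281-176962592, where RAD21 was 25.3 and ZNF143 11.1. ZNF143 signals at the 9 triple sites lay between 5.67 and 11.6 (median 9.89), so that all were below the HOXB median of 14.1. At chr2:176951063-176951204, which had the lowest CTCF and ZNF143 signals of the 28 triple sites in wild type, RAD21 was 20.9 (percentile 75.8 of its list), CTCF 12.2 (41.7) and ZNF143 5.67 (5.67).

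The overlap of the 3 proteins was compared first in wild type. Of the 31 ZNF143 peaks in the clusters, 28 overlapped a CTCF peak, 90.3% (exact 95% binomial interval 74.2 to 98.0), against 73.1% of the whole list. The same 28 overlapped a RAD21 peak, against 72.9% of the whole list. Of the 40 CTCF peaks, 35 overlapped RAD21 (87.5%, 73.2 to 95.8), against 76.4% of the whole list, and 28 overlapped ZNF143 (70.0%, 53.5 to 83.4), against 50.6%. Of the 40 RAD21 peaks, 35 overlapped CTCF, against 82.8% of the whole list, and 28 overlapped ZNF143, against 54.8%. With a reciprocal overlap of 50%, ZNF143 peaks at RAD21 were 48.4%, and the whole-list share under that rule is not given here. The intervals measure counting error alone.

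The CTCF peaks of the clusters were also strong ones, and overlap moved with strength. In the stronger 50% of the CTCF list, 27 of 27 cluster peaks overlapped ZNF143, where the whole list gave 86.1%. In the weaker 50%, 1 of 13 did, and the whole list gave 15.1%. The 12 CTCF peaks without ZNF143 had signals of 6.16 to 12.3, and the 28 with ZNF143 had 12.2 to 29.4. The ranges overlapped only between 12.2 and 12.3. The part of strength in the overlap was not tested further.

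ZNF143 without CTCF was found at 6 sites, in 3 of the clusters, and HOXC had none. The strongest was in HOXD, at chr2:176994303-176994481, with ZNF143 signals of 22.9 in wild type, 21.4 at 0 h and 20.2 at 24 h of auxin. These were at percentiles 94.5, 94.0 and 89.3 of their lists, and the wild-type value was above those of all 28 triple sites. No list held a CTCF or RAD21 peak there, and the nearest wild-type CTCF summit was 2478 bp away. A second ZNF143 site, chr2:176994953-176995039, had its 0 h summit 614 bp further on, with signals of 9.52 at 0 h and 7.76 at 24 h and no wild-type peak. In HOXB, chr17:46688897-46688976 had 7.52 in wild type, 9.65 at 0 h and 6.23 at 24 h. Also in HOXB, chr17:46725372-46725454 had 6.35 in wild type and 8.97 at 0 h. The HOXA sites were chr7:27136665-27136725, with 5.50 at 0 h and 7.53 at 24 h, and chr7:27162380-27162422, with 6.33 at 0 h alone. Thus 4 of the 6 sites had a peak after auxin.

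**Figure D2:**
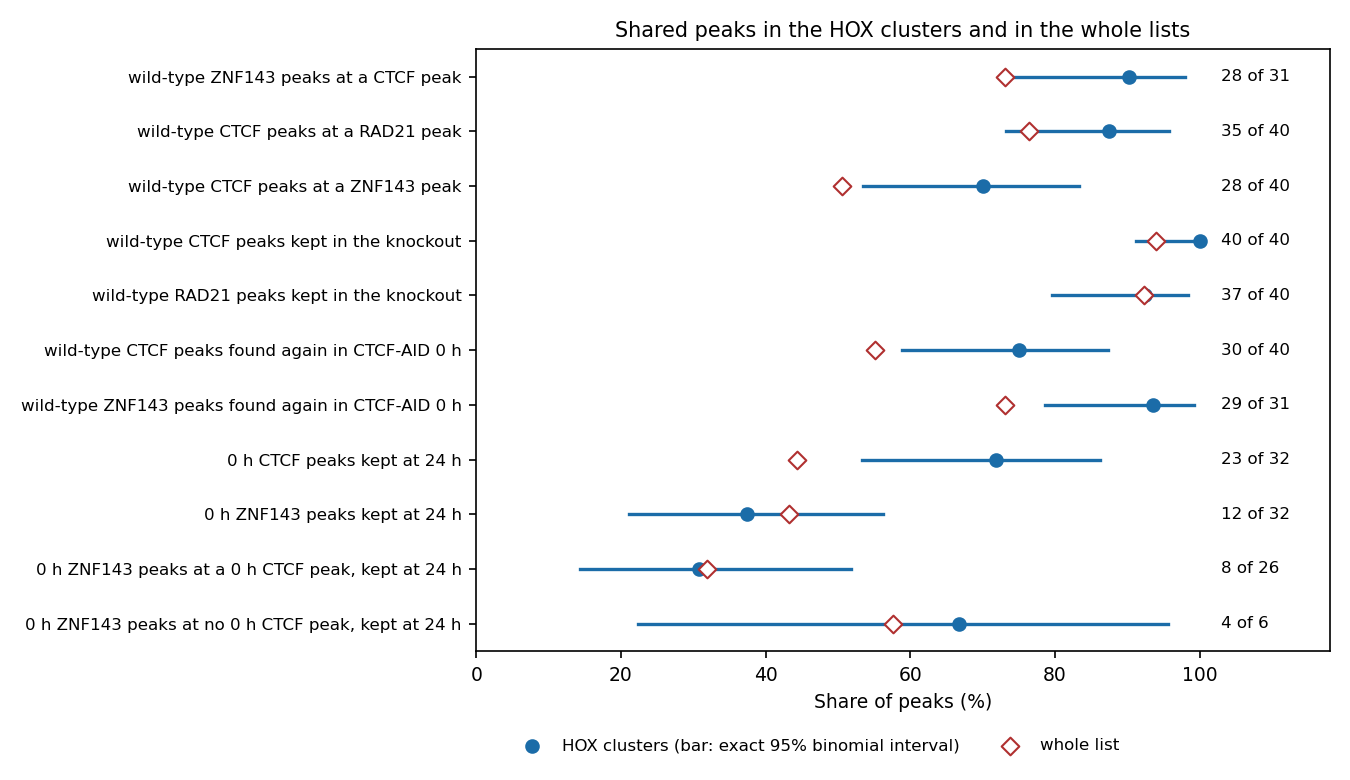
Shares of peaks in the HOX clusters that overlapped a peak of a second list, in percent. Filled points are the clusters with exact 95% binomial intervals, open diamonds the whole lists; the kept CTCF peaks at 24 h (23 of 32) sit above the whole-list diamond and the kept ZNF143 peaks (12 of 32) next to theirs.

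Cells without ZNF143 were examined for the CTCF and cohesin sites of the clusters that remain. All 40 wild-type CTCF peaks had a peak in the knockout list (100%, 91.2 to 100), against 94.0% of the whole list. These were 28 of 28 peaks with ZNF143, against 98.9% of such peaks in the whole list, and 12 of 12 without ZNF143, against 88.9%. Both CTCF lists, wild type and knockout, were also held to the 13865 strongest peaks, the length of the 24 h CTCF list. Then 11 of 19 wild-type peaks had a peak in the cut knockout list (57.9%). The others had one in the full knockout list, outside its 13865 strongest peaks. The whole-list share at this length is not given here. Of the 40 wild-type RAD21 peaks, 37 were kept (92.5%, 79.6 to 98.4), against 92.3% of the whole list. All 28 RAD21 peaks with ZNF143 were kept, against 98.2% of such peaks in the whole list. Of the 12 without ZNF143, 9 were kept, against 85.2%.

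The 3 RAD21 peaks seen in wild type alone were weak. Their signals were 8.15 at chr7:27160239-27160265, 7.17 at chr17:46647178-46647248 and 4.81 at chr12:54411872-54411892. The HOXB site kept its CTCF peak, with 8.67 in wild type and 13.1 in the knockout. The other two had no peak in any other list.

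Over the 28 triple sites, CTCF signals in the knockout ran from 15.3 to 24.2 (median 21) and RAD21 signals from 8.60 to 20.4 (median 15.5). In wild type they ran from 12.2 to 29.4 (median 22.5) and from 7.45 to 26.2 (median 20.7), each on the scale of its own list. The knockout RAD21 signals are limited at the top, since 15 of the 41 cluster peaks were at that list's highest summit count. Among the 50 CTCF peaks of the knockout, 37 overlapped RAD21 (74.0%, 59.7 to 85.4), against 78.3% of the whole list. Among the 41 RAD21 peaks, 37 overlapped CTCF (90.2%, 76.9 to 97.3), against 87.3%.

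The knockout lists held additional weak peaks. Among the 50 CTCF peaks of the knockout, 10 had no wild-type peak (20%, 10.0 to 33.7), against 21.6% of the whole list, with 3 in HOXA, 1 in HOXB, 4 in HOXC and 2 in HOXD. Their signals lay between 5.94 and 8.92, all at or below percentile 15.8 of the knockout list. The highest were 8.92 at chr7:27175596-27175636 and 8.33 at chr7:27151045-27151078. Among the 41 RAD21 peaks of the knockout, 4 had none (9.76%, 2.72 to 23.1), against 20.9% of the whole list. At 3 sites both proteins had a peak in the knockout and neither had one in wild type. These were chr17:46629988-46630050 (CTCF 6.82, RAD21 7.30), chr12:54346175-54346248 (8.25 and 9.72) and chr12:54397978-54398033 (5.94 and 5.85). The remaining RAD21 peak was at chr7:27173387-27173409, with 5.18.

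Depth moved with these counts. Background reads per kb, which the ratio and −log10 p of each peak give together, were 2.19 times as high in the knockout CTCF library as in the wild-type one, and 3.35 times as high for RAD21. With both CTCF lists held to the length of the wild-type one, 0 knockout CTCF peaks of the clusters were absent from wild type. This followed from the cut, which dropped the weakest peaks of the knockout list, from 63420 to 52982. All 10 additional peaks, at or below percentile 15.8, were among those dropped. The value therefore says nothing on depth, and the part of depth was not tested. The whole-list share at that length is not given here. In the knockout RAD21 list, 15 of the 41 cluster peaks were at the highest summit count the list holds, so their signal values do not rank them. In the knockout CTCF list 1 of the 50 cluster peaks was. In the wild-type lists no cluster peak was at that limit. Whole-list shares at the limit are not given here.

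Summit positions were used to describe the geometry of CTCF and cohesin at these sites. In wild type the RAD21 summit lay a median 17 bp from the CTCF summit over 35 sites (quartiles 4.00 and 33.0), and in the knockout 20 bp over 37 sites (11 and 34). The whole lists gave 15 and 12 bp. At the 34 sites measured in both genotypes, the distance was shorter in the knockout at 14 and longer at 20, with medians of 19 and 20 bp. CTCF summits of the genotypes differed from each other by a median of 10.0 bp over 40 sites, and RAD21 summits by 9 bp over 37. The median change in distance from wild type to knockout, site by site, was 5.50 bp.

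The side on which RAD21 lay was mostly the same in both genotypes. The RAD21 summit was on the same side of the CTCF summit at 27 of the 34 sites, against 67.0% of sites in the whole lists. Where both distances were at least 10 bp, a limit chosen after the values were seen, the side was the same at 15 of 16 sites, against 83.3% in the whole lists. In HOXB the last 3 triple sites all had RAD21 at higher coordinates than CTCF, by 31, 37 and 12 bp in wild type and by 36, 34 and 14 bp in the knockout. The HOXA sites starting at 27183364 and 27200614 had it at lower coordinates, by −34 and −32 bp in wild type and −29 and −44 bp in the knockout. Neither cluster had RAD21 on 1 side only. The HOXA sites starting at 27190469 and 27235845 had it higher, by 17 and 14 bp in wild type and 34 and 20 bp in the knockout. The HOXB sites starting at 46662773 and 46695960 had it lower, by −7 and −8 bp and by −31 and −65 bp. The exception among the 16 was the HOXD site starting at 176951063, with −32 bp in wild type and 19 bp in the knockout. The HOXA site starting at 27219423 moved furthest among the sites of that cluster, from 2 to −57 bp.

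**Figure D3:**
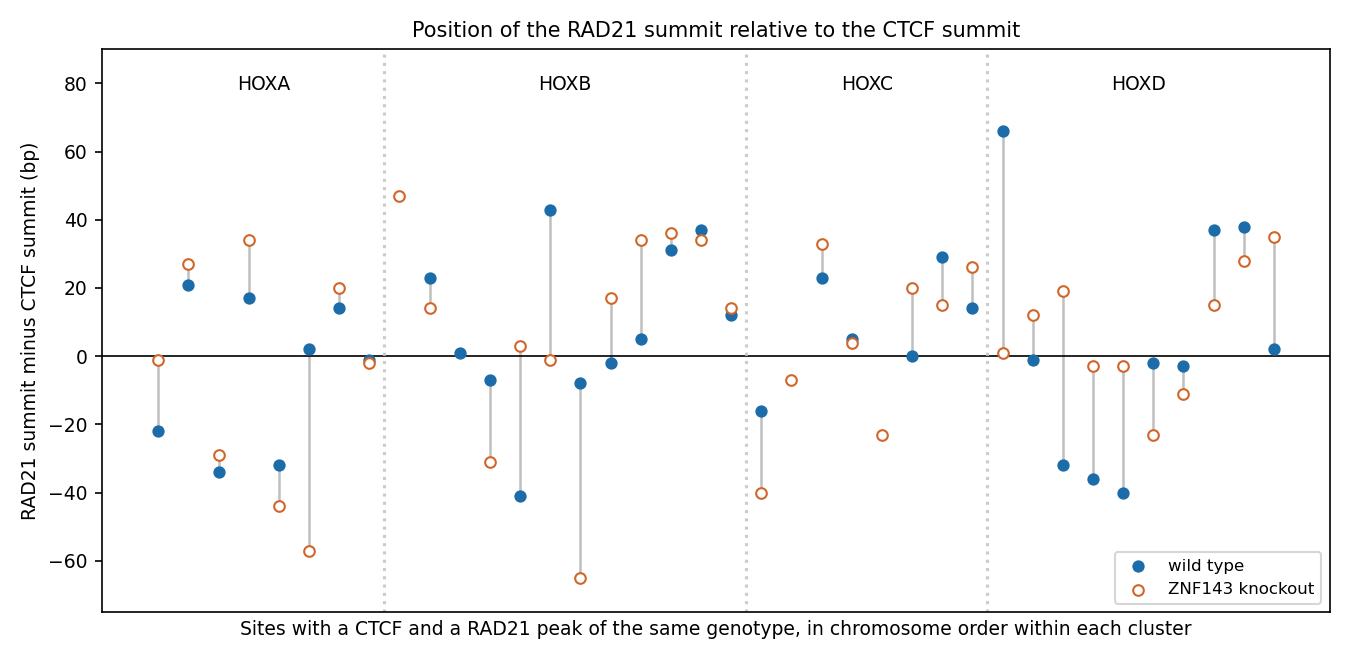
RAD21 summit minus CTCF summit in bp at each site with both peaks, in wild type (filled) and knockout (open), joined where both were measured. Sites are in chromosome order within each cluster; most joined pairs stay on 1 side of the line at 0, 27 of 34.

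ZNF143 lay closer to CTCF than RAD21 did in the wild-type libraries. Over the 28 triple sites its summit was a median 8 bp from the CTCF summit (quartiles 3.50 and 13.5), against 10 bp over the whole lists. The largest distance, 79 bp, was at the HOXD site starting at 176944625, where the RAD21 summit was 66 bp from the CTCF summit. There the knockout and 0 h CTCF summits lay 67 and 68 bp from the wild-type CTCF summit, and the knockout RAD21 summit was 1 bp from the knockout CTCF summit.

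Untreated CTCF-AID cells, which carry the degron but had no auxin, were set beside wild type. The 0 h list held 30 of the 40 wild-type CTCF peaks (75%, 58.8 to 87.3), against 55.1% of the whole list. Conversely 30 of the 32 CTCF peaks at 0 h had a wild-type peak, against 95.6%. All 28 triple sites had a 0 h CTCF peak. The 10 peaks not found again had wild-type signals of 6.16 to 12.3, and 5 were in HOXB, 4 in HOXC and 1 in HOXD. For ZNF143, the 0 h list held 29 of the 31 wild-type peaks (93.5%, 78.6 to 99.2), against 73.1%, and 29 of the 32 peaks at 0 h had a wild-type peak, against 76.8%. The missing 2 were at the triple sites starting at 46639637 in HOXB and 176951063 in HOXD.

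Which CTCF and ZNF143 sites of the clusters remain after auxin was asked with the CTCF-AID lists. Of the 32 CTCF peaks at 0 h, 23 had a peak at 24 h (71.9%, 53.3 to 86.3), against 44.4% of the whole list. By cluster these were 7 of 10 in HOXA, 8 of 10 in HOXB, 3 of 3 in HOXC and 5 of 9 in HOXD. All 23 were triple sites of wild type. Of the 26 CTCF peaks with ZNF143 at 0 h, 23 were kept (88.5%, 69.8 to 97.6), against 67.0%, and of the 6 without it 0 were, against 5.31%. In the stronger 50% of the 0 h CTCF list, 22 of 23 cluster peaks were kept, against 77.0% of the whole list. In the weaker 50%, 1 of 9 was kept, against 11.7%. Of the 26 peaks with ZNF143, 23 were in the stronger 50%, and all 6 without it were in the weaker 50%. ZNF143 and strength can thus hardly be told apart in the clusters. Within the weaker 50%, 1 of 3 peaks with ZNF143 and 0 of 6 without it were kept. The whole list gave 29.4% and 2.65% there. Of the 24 CTCF peaks at 24 h, 0 were absent at 0 h, a share whose exact interval reaches 14.2%, against 0.887% of the whole list.

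The 9 CTCF peaks without a 24 h peak had 0 h signals of 3.95 to 16.2 (median 9.02), and the 23 kept ones had 10.7 to 28.6 (median 22.6). The ranges overlapped between 10.7 and 16.2. The 3 unkept peaks that carried ZNF143 at 0 h were all in HOXD, at the sites starting at 176945050, 176953116 and 177005301, with 0 h CTCF signals of 13.8, 16.2 and 12. The kept peak of lowest 0 h signal was also in HOXD, at chr2:176983743-176983927, with 10.7 at 0 h and 5.45 at 24 h. The highest 24 h signals were 18.5 at the HOXC site starting at 54426399, 15.1 at the HOXA site starting at 27200614 and 13.7 at the HOXB site starting at 46801955. In the 0 h list these sites had 25.8, 26.7 and 27.3. Over all 23 kept sites the 24 h signals ran from 4.56 to 18.5 (median 8.70), on the scale of their own list. The median of the whole list was 15.9 at 0 h and 8.58 at 24 h.

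Peak calls at 24 h were made at lower depth. The 24 h CTCF library had 0.304 times the background reads per kb of the 0 h library, and its cluster peaks had a median width of 63 bp against 228 bp. The part of depth in the peaks not kept was not tested. With both lists held to the 13865 strongest peaks, 21 of 21 cluster peaks were kept (100%). With a reciprocal overlap of 50% only 3 of 32 were (9.38%), and 87.5% of the 24 h CTCF peaks counted as absent at 0 h, since the peaks differ in width. Whole-list shares under these settings are not given here, so these values do not set the clusters apart from the list.

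ZNF143 had fewer peaks in common between the auxin times. Of the 32 ZNF143 peaks at 0 h, 12 had a peak at 24 h (37.5%, 21.1 to 56.3), against 43.2% of the whole list. Of the 12 ZNF143 peaks at 24 h, 0 were absent at 0 h, a share whose exact interval reaches 26.5%, against 8.10% of the whole list. The depth of the ZNF143 libraries differed less, with a ratio of 24 h to 0 h background of 0.893. At 0 h, 26 of the 32 peaks overlapped a CTCF peak (81.2%), against 56.1% of the whole list. Of these 26, 8 were kept (30.8%, 14.3 to 51.8), against 31.9%. Of the 6 without CTCF, 4 were kept (66.7%, 22.3 to 95.7), against 57.6%. The cluster shares lay close to those of the whole list, and the interval for 6 peaks is wide. Of the 12 ZNF143 peaks at 24 h, 8 overlapped a CTCF peak of that time (66.7%, 34.9 to 90.1), against 32.2%. With both ZNF143 lists held to the length of the 24 h list, 9 of 14 were kept (64.3%), and the whole-list share is not given.

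The 8 sites with CTCF that kept ZNF143 were spread over all clusters. In HOXA they were the sites starting at 27190469, with ZNF143 signals of 18.9 at 0 h and 10.3 at 24 h, at 27200614, with 17 and 14.8, and at 27219423, with 13.6 and 9.16. They are neighbours, and the triple sites on either side of them had no ZNF143 peak at 24 h. In HOXB the sites starting at 46671251 (11 and 5.31) and 46695960 (16.6 and 7.93) kept a peak. In HOXC those starting at 54399749 (16.4 and 9.49) and 54426399 (19.7 and 10.6) did, and in HOXD the site starting at 176962281 (15.2 and 9.62). Each of the 8 also had a CTCF peak at 24 h, with signals of 6.02 to 18.5, and these are the 8 sites with a peak in all 9 lists. The 4 sites without CTCF that kept ZNF143 had no CTCF peak at 24 h. Of the 20 sites with ZNF143 at 0 h alone, 18 had CTCF at 0 h and 2 did not. Of those 18, 15 had a CTCF peak at 24 h, with signals of 4.56 to 13.7. The whole-list share for this count is not given here, and a link between CTCF and ZNF143 at 24 h was not tested.

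The ZNF143 signal at 0 h separated kept from unkept peaks in part. Among peaks with CTCF, the kept ones had 11 to 19.7 (median 16.5) and the others 5.95 to 18.6 (median 9.91). The overlap of these ranges came from 3 HOXB sites. At those starting at 46749030, 46755850 and 46801955, ZNF143 had 18.4, 17.9 and 18.6 at 0 h, at or above percentile 85.9 of the list, and no peak at 24 h. CTCF at these sites had 22.9, 20.2 and 27.3 at 0 h and 12.6, 7.55 and 13.7 at 24 h. Every other unkept ZNF143 peak with CTCF had a 0 h signal of at most 10.8. In the stronger 50% of the 0 h ZNF143 list, 8 of 15 cluster peaks with CTCF were kept, against 46.5% of the whole list. In the weaker 50%, 0 of 11 were kept, against 11.7%. Unkept ZNF143 peaks with CTCF in the stronger 50% were thus common in the whole list and not particular to HOXB. The whole-list share at or above percentile 85.9 is not given here.

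**Figure D4:**
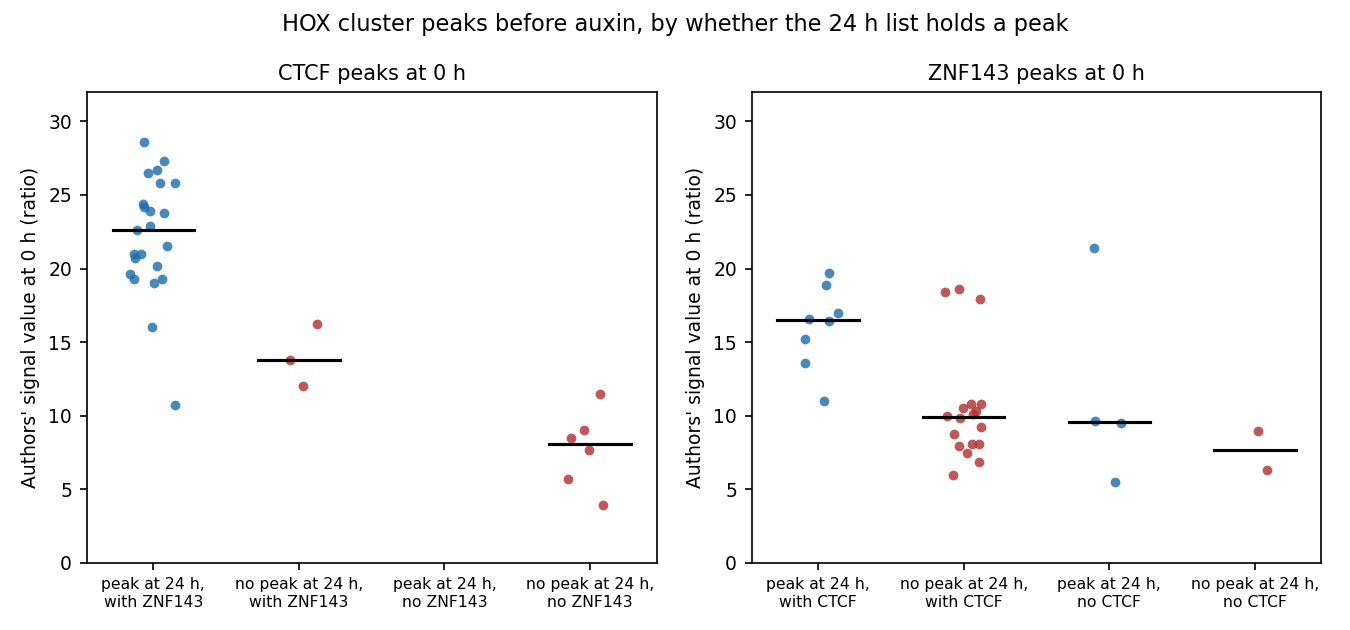
Signal values at 0 h of CTCF peaks (left) and ZNF143 peaks (right) in the HOX clusters, as the authors' ratio, split by a peak at 24 h and by the other protein at 0 h; lines are medians. The 3 red points near 18 in the ZNF143 panel are the HOXB sites without a 24 h peak.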

How the data were processed

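Peaks of ZNF143, CTCF and RAD21 were deposited per sample in the narrow-peak layout, and the 9 samples were grouped by their titles, with 1 library per group. Per the submitters' processing notes, cutadapt 2.10, Bowtie2 2.3.5.1, SAMtools 1.12, MACS2 2.2.7.1 and deepTools were used with build hg19. Their roles and settings and any pooling of cultures are not given in the sources used here. The signal value was deposited as a ratio, read as fold enrichment over the caller's background with 1 added to count and background. The authors also deposited each peak's −log10 p, −log10 q and a score, equal to 10 times the −log10 q with decimals dropped. Peaks on chromosomes 1 to 22 and X were used, and 0 peaks crossed a window's edge. Overlap by 1 bp counted as shared, and summits were paired within 200 bp.

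Intervals are exact (Clopper-Pearson) at 95%. They cover counting error over peaks only, and no test between conditions was possible. Relative depth was found by solving for the whole summit count and background that give the deposited ratio and −log10 p under a Poisson model. Counts matched within 0.002 for 100% of peaks in each list, and the commonest background was divided by the shortest peak length. The windows, sites and comparisons were chosen with earlier results of these data known. Named sites were, per cluster, the 3 in the most lists, those with ZNF143 and no CTCF, those with CTCF or RAD21 in 1 genotype alone (up to 3 per direction), those with ZNF143 at 24 h and the 3 highest for CTCF at 24 h. Further sites were named after their values were seen. The planned search for CTCF motif orientation under the peaks was not run, since the reference used here is on another build. The work was done in Python 3.11.15 with pandas 2.3.3, numpy 2.4.6, matplotlib 3.10.9 and scipy 1.17.1. Overlap calls and count recovery were tested on simulated data, with 0 errors in 600 peaks per overlap rule and in 3000 counts.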

Additional observations from a re-analysis of the deposited data

How the results depend on the processing

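Of 100 alternative values for the 19 main results, 76 stayed within the main interval (for site counts, within 1.5 times) and 24 moved. Of 154 alternative values for the other 55 results, which include the 36 named sites, 38 moved. In the stronger 50% of each list, the number of lists with a peak moved at 20 named sites. At a −log10 q of at least 5 it moved at 1, the wild-type RAD21 site chr12:54411872-54411892, which then had a peak in 0 lists. The settings that hold the lists of an antibody to its shortest size, or sites to those in at least 2 lists, were chosen after the data were seen. The cause was not tested except where stated.

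In the stronger 50% of each list, HOXA held 7 sites, HOXB 10 and HOXC 4, 31 in all 4 clusters. With both lists of a pair cut in this way, the stronger part of the knockout list held 75% of RAD21 peaks. That of the 24 h list held 52.2% of 0 h CTCF peaks, and that of the 0 h list 76.2% of wild-type ZNF143 peaks. Against the partner list at full length, the same stronger peaks gave 24 of 24, 22 of 23 and 20 of 21. A reciprocal overlap of 50% left 71.0% of wild-type ZNF143 peaks on CTCF, 48.4% on RAD21, 72.5% of CTCF peaks on RAD21 and 72.5% of RAD21 peaks on CTCF. It also left 90% of CTCF peaks kept in the knockout and 9.38% at 24 h, and 87.5% of 24 h CTCF peaks counted as absent at 0 h, by construction, since these peaks are narrow. With pairs of lists at the shorter size, 90% of CTCF peaks had a knockout peak. Of the CTCF peaks left in the cut knockout list 0% were additional, by construction, since the cut dropped the weak additional peaks. The 24 h lists kept 100% (CTCF) and 64.3% (ZNF143), and the 0 h list held 100% of wild-type CTCF peaks. With lists of an antibody at its shortest size, the cut knockout list held 57.9% of CTCF peaks, 11 of 19, though the full knockout list held them all. At that size 100% (CTCF) and 64.3% (ZNF143) were kept at 24 h, and the 0 h lists held 94.7% (CTCF) and 76.5% (ZNF143) of wild-type peaks. Holding every list to a −log10 q of at least 5, or pairing summits within 100 bp, moved none of the main results. No paired analysis was possible because each group has 1 library. The planned orientation of the CTCF motif at the sites, with its looser letters and its narrower window, was not run because the reference is on another build. The number of peaks in the clusters, 12 to 50 per list, limits the precision of every share. Whole-list shares under the alternative settings are not given here.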
